A study of Mus musculus with 7 samples.

Results

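The mouse mitochondrial genome carries 37 genes, and the deposited expression table held a row for each of them among its 52224 genes. They were found as all rows whose symbol starts with mt-: 13 genes for proteins, 2 for ribosomal RNAs and 22 for transfer RNAs. RNA was sequenced from bone marrow cells sorted as haematopoietic stem cells, which keep up the supply of all blood cells, from wild-type C57BL/6J mice; the sort took lineage-negative, Sca-1+ Kit+ (LSK) cells with CD150 and without CD48. The cells were kept in culture for 48 h with gemcitabine at 0.5 µM (Gem, 2 libraries), hydroxyurea at 100 µM (HU, 2 libraries) or the solvent DMSO (3 libraries). Gemcitabine resembles deoxycytidine and blocks further synthesis once DNA polymerases have used it, and hydroxyurea lowers deoxynucleotide pools by blocking ribonucleotide reductase. All groups thus shared strain, genotype, sort and time in culture, and the labels leave unsaid whether a group's libraries were separate mice or cultures. The p-values therefore speak only of the spread among these 7 libraries, which may be technical.

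Mitochondrial DNA is a small circle that is copied into long transcripts from both strands. Most protein and ribosomal RNA genes lie between transfer RNA genes, and cutting out the transfer RNAs frees the messengers and ribosomal RNAs. The messengers encode core subunits of respiratory complexes I, III and IV and of the ATP synthase (complex V), whose other subunits come from the nucleus, as do the polymerases, nucleases and binding proteins that make, cut, stabilise and copy mitochondrial RNA and DNA.

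Values are FPKM, fragments scaled to transcript length and to the mapped fragments of the library, so levels are per length. Between genes they compare less well for very short genes and for those with a near-identical nuclear copy, as set out further on. Differences are log2 fold changes of FPKM + 1 with their standard error (SE), and a gene was called at a limma p below 0.05 after Benjamini-Hochberg adjustment over the 13865 genes with at least 1 FPKM in at least 2 libraries. The whole table shifted: the median log2 fold change of all genes tested was -0.25 in Gem and -0.30 in HU against DMSO. Summed over the table, FPKM came to 703016 to 729258 in Gem, 647760 to 651315 in HU and 818775 to 832979 in DMSO libraries. Of 1998 olfactory and vomeronasal receptor genes, which blood cells should lack, 1002 to 1083 were above 0 in Gem, 1241 to 1275 in HU and 384 to 408 in DMSO libraries. Counts of calls are therefore also given after rescaling the libraries to the same sum, which brought the medians to -0.077 in Gem and -0.0028 in HU; the part of the receptor signal in the results was not tested. Among the sort markers, Slamf1 (CD150) was at 0.41 to 1.25 FPKM and Cd48, the marker sorted against, at 102 to 223 FPKM over the 7 libraries, while Lyz2, a gene of granulocytes and monocytes, reached 21718 to 36422 FPKM. The 6 granulocyte and monocyte markers summed to 45333 to 46600.1 FPKM in Gem, 41996 to 45491 in HU and 34910.0 to 39543 in DMSO, with Lyz2 all above DMSO in each drug, Csf1r all below in each, and S100a8 and S100a9 all below in HU. The 10 stem cell markers summed to 97.2 to 107 FPKM in Gem, 90.4 to 94.95 in HU and 143 to 154 in DMSO, with 5 in Gem and 4 in HU all below DMSO, 1 in each drug all above, and Fgd5 at 0 to 0.50. Of all genes tested, 50.4% in Gem and 53.9% in HU were all below DMSO, so nothing is read from these marker counts. The part of the markers in the results was not tested. The label of stem cell thus describes the cells that were sorted, and the levels of Slamf1, Cd48 and Lyz2 after culture went against it. Fewer cells of a type and less RNA per cell cannot be told apart in such bulk samples.

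As classes, protein and ribosomal RNA genes took a somewhat smaller share of the summed FPKM in HU, and transfer RNA genes appeared in 3 of the 4 drug libraries. The 13 protein genes held 5.54% ± 0.519 of the sum in Gem (SD, n = 2), 4.53% ± 0.241 in HU (n = 2) and 5.17% ± 0.396 in DMSO (n = 3). The 2 ribosomal RNA genes held 2.33% ± 0.150 in Gem, 1.78% ± 0.0524 in HU and 2.13% ± 0.108 in DMSO. Both HU libraries lay under every DMSO library in both classes, and the Gem range overlapped that of DMSO. For the protein class this separation of HU held only for the gene rows alone. With the FPKM of the near-identical nuclear copies added, the share was 7.929% in HU replicate 2, above the 7.887% in DMSO replicate 2. HU replicate 1 stayed below every DMSO library, and the Gem range still overlapped that of DMSO. The transfer RNA genes held 0% and 0.910% in the Gem libraries, 4.13% and 0.917% in the HU libraries and 0% in each DMSO library.

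The 2 ribosomal RNAs moved unequally. mt-Rnr1, the 12S RNA of the small mitochondrial ribosomal subunit, had 2418 and 1926 FPKM in Gem, 1451 and 1929 in HU, and 3345, 2939 and 3314 in DMSO. All drug libraries lay below all DMSO libraries. The log2 fold change was -0.57 ± 0.16 (SE) in Gem (limma with Benjamini-Hochberg adjustment, adjusted p = 0.0369) and -0.93 ± 0.16 in HU (adjusted p = 0.00414). After rescaling the HU difference was -0.59 (limma adjusted p = 0.0440, and 0.0510 with trimmed-mean scaling), and the Gem difference was -0.36 with an adjusted p of 0.208. The Gem call was also lost without any 1 of the Gem or DMSO libraries, with limma adjusted p between 0.0547 (without DMSO replicate 2) and 0.245 (without Gem replicate 2), while the HU call held with each of the 7 libraries left out.

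mt-Rnr2, the 16S RNA of the large subunit, was the highest member in 6 of the 7 libraries. It had 15361 and 13719 FPKM in Gem, 9812 and 9878 in HU, and 13545, 14450 and 15044 in DMSO. Gem and DMSO overlapped, with a log2 fold change of 0.018 ± 0.13 (limma adjusted p = 0.934), whereas HU lay below all DMSO libraries, at -0.54 ± 0.13 (adjusted p = 0.0157). The HU call was lost after rescaling (-0.20, adjusted p = 0.360) and without HU replicate 1 (adjusted p = 0.118) or HU replicate 2 (adjusted p = 0.106). The ratio of mt-Rnr2 to mt-Rnr1, which no scaling of a library can move, was 6.74 ± 0.545 in Gem, 5.94 ± 1.16 in HU and 4.50 ± 0.435 in DMSO (SD), and every drug library lay above every DMSO library. This ratio was chosen after the values were seen and was not tested.

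**Figure D1:**
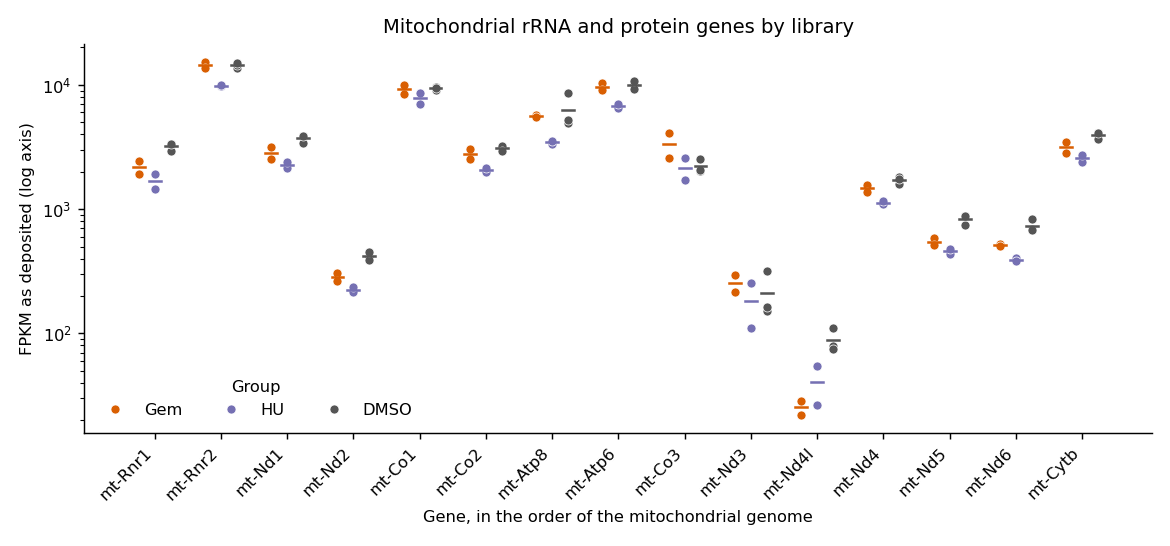
FPKM as deposited (log axis) of the 2 ribosomal RNA and 13 protein genes in mitochondrial genome order; points are libraries, and bars are means of Gem (n = 2), HU (n = 2) and DMSO (n = 3). For mt-Nd2, mt-Nd5 and mt-Nd6 the Gem and HU points all lie under the DMSO points, while for mt-Co3 and mt-Nd3 the groups mix or Gem is highest.

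Complex I, the NADH dehydrogenase that feeds electrons into the respiratory chain, has 7 subunits encoded by the mitochondrial genome. Of these, 4 fell in Gem (mt-Nd2, mt-Nd4l, mt-Nd5 and mt-Nd6) and 6 fell in HU, all but mt-Nd3. No other mitochondrial protein gene passed the test in Gem, so the Gem count was 4 of 13, beside 23.2% of all genes tested that were called lower and 1.5% called higher in Gem. In HU 10 of the 13 were called lower, beside 35.5% of all genes tested called lower and 4.46% called higher.

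mt-Nd5, a proton-pumping subunit, had 582 and 515 FPKM in Gem, 438 and 479 in HU, and 879.5, 744 and 878 in DMSO. mt-Nd2, another membrane subunit, had 306 and 262 FPKM in Gem, 214 and 235 in HU, and 409, 389.6 and 455 in DMSO. In both genes the Gem and HU libraries were all below the DMSO libraries. mt-Nd5 fell by 0.60 ± 0.11 (SE) on the log2 scale in Gem (limma with Benjamini-Hochberg adjustment, adjusted p = 0.0102) and by 0.86 ± 0.11 in HU (adjusted p = 0.00158). mt-Nd2 fell by 0.56 ± 0.10 in Gem (limma adjusted p = 0.0116) and by 0.89 ± 0.10 in HU (adjusted p = 0.00135).

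mt-Nd6 is the only protein gene whose messenger comes from the other strand. Its levels were 523 and 502 FPKM in Gem, 401 and 381 in HU, and 698, 678 and 833 in DMSO, with no overlap of either drug with DMSO. It fell by 0.52 ± 0.10 in Gem (limma adjusted p = 0.0135) and by 0.91 ± 0.10 in HU (adjusted p = 0.00129). Its last 14 bases lie opposite the end of mt-Nd5, and since the labels do not say that reads carry strand, fragments from this stretch, or from antisense transcripts of either gene, cannot be told apart.

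mt-Nd1, a membrane subunit by the quinone-binding site, had 3131 and 2544 FPKM in Gem, 2140 and 2390.4 in HU, and 3858, 3401 and 3869 in DMSO. mt-Nd4, a further proton-pumping subunit, had 1566 and 1373 FPKM in Gem, 1089.99 and 1159.6 in HU, and 1800.4, 1592 and 1736 in DMSO. Both drugs lay below all DMSO libraries in both genes. Their HU differences passed the test, at -0.71 ± 0.13 for mt-Nd1 (limma adjusted p = 0.00510) and -0.60 ± 0.098 for mt-Nd4 (adjusted p = 0.00375). Their Gem differences did not, at -0.39 ± 0.13 (limma adjusted p = 0.0594) and -0.22 ± 0.098 (adjusted p = 0.141).

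mt-Nd4l, a small membrane subunit, was the lowest protein gene. It had 22.1 and 28.7 FPKM in Gem, 55.1 and 26.6 in HU, and 111, 79.3 and 74.4 in DMSO, below DMSO in every drug library. It fell by 1.75 ± 0.30 on the log2 scale in Gem (limma adjusted p = 0.00989) and by 1.16 ± 0.30 in HU (adjusted p = 0.0201). mt-Nd3, a small membrane subunit, varied widely within groups, with 295 and 217 FPKM in Gem, 110 and 254 in HU, and 315, 151 and 164 in DMSO. Its groups overlapped, at 0.35 ± 0.41 in Gem (limma adjusted p = 0.560) and -0.24 ± 0.41 in HU (adjusted p = 0.667). Both genes have a near-identical nuclear copy, which changes how these rows read, as set out further on.

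mt-Cytb, cytochrome b, is the only subunit of complex III from the mitochondrial genome. It had 3479.8 and 2843 FPKM in Gem, 2377 and 2731 in HU, and 4092, 3641 and 4109 in DMSO. All drug libraries lay below DMSO, and HU passed the test at -0.63 ± 0.13 (limma adjusted p = 0.00825) while Gem was at -0.33 ± 0.13 (adjusted p = 0.103).

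Complex IV, cytochrome c oxidase, is built on 3 mitochondrial subunits, and only mt-Co2 changed by the test, in HU. mt-Co1, the catalytic subunit, had 10033 and 8466 FPKM in Gem, 7042 and 8533 in HU, and 9671, 9096 and 9426 in DMSO. mt-Co2, which takes electrons from cytochrome c, had 3029.9 and 2512 FPKM in Gem, 1989.5 and 2161 in HU, and 3147, 3225 and 2916 in DMSO. mt-Co3, the remaining core subunit, had 4066 and 2593 FPKM in Gem, 2572 and 1725 in HU, and 2521, 2041 and 2054 in DMSO. HU was below all DMSO libraries for mt-Co1 and mt-Co2, and Gem above all of them for mt-Co3. The tests gave -0.58 ± 0.11 for mt-Co2 in HU (limma adjusted p = 0.00721), -0.28 ± 0.14 for mt-Co1 in HU (adjusted p = 0.158) and 0.57 ± 0.24 for mt-Co3 in Gem (adjusted p = 0.118). The other differences of the 3 genes were between -0.17 and -0.028, with groups that overlapped.

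Complex V, the ATP synthase, has 2 mitochondrial subunits, whose reading frames overlap by 43 bases on the same strand. mt-Atp6, part of its proton channel, had 10308 and 9019 FPKM in Gem, 6484 and 7008 in HU, and 10072, 9244 and 10753 in DMSO. mt-Atp8, a small subunit of the membrane part, had 5728 and 5489 FPKM in Gem, 3336 and 3542 in HU, and 4908, 5193 and 8569.8 in DMSO. HU lay below all DMSO libraries in both genes and Gem overlapped DMSO in both. In HU mt-Atp6 fell by 0.57 ± 0.13 (limma adjusted p = 0.0131) and mt-Atp8 by 0.81 ± 0.23 (adjusted p = 0.0284). In Gem the differences were -0.053 ± 0.13 (limma adjusted p = 0.797) and -0.10 ± 0.23 (adjusted p = 0.773).

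Over the 13 protein genes the median log2 fold change was -0.22 in Gem and -0.63 in HU, beside -0.25 in Gem and -0.30 in HU over all genes tested. The Gem libraries were all below DMSO in 7 of the 13 and all above in 1, where 50.4% of all genes tested were all below and 5.94% all above. The HU libraries were all below DMSO in 11 of the 13 and all above in none, where 53.9% of all genes were all below and 8.24% all above. The Gem counts of the protein genes were thus near the shares of the whole table, and in HU the share of the 13 called lower was above it.

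Rescaling the libraries left 1 call in Gem, mt-Nd4l (-1.56, limma adjusted p = 0.0471), where 2.41% of all genes were called lower and 0.765% higher, and 3 in HU, where 6.01% were called lower and 4.65% higher. The 3 in HU were mt-Nd2 (-0.55, limma adjusted p = 0.0165), mt-Nd5 (-0.52, adjusted p = 0.0199) and mt-Nd6 (-0.56, adjusted p = 0.0178). Of the Gem calls as deposited, all 4 were lost without Gem replicate 2, with limma adjusted p between 0.0767 for mt-Nd4l and 0.107 for mt-Nd6, and mt-Nd4l (adjusted p = 0.0644) and mt-Nd6 (adjusted p = 0.0609) also without Gem replicate 1. Of the HU calls, those of mt-Nd2, mt-Nd4, mt-Nd5 and mt-Nd6 held with each of the 7 libraries left out. Without HU replicate 1 the calls of mt-Nd1 (limma adjusted p = 0.0551), mt-Cytb (0.0814), mt-Co2 (0.0684), mt-Atp6 (0.116) and mt-Atp8 (0.162) were lost. Without HU replicate 2 those of mt-Nd4l (limma adjusted p = 0.1199), mt-Atp6 (0.0684) and mt-Atp8 (0.1196) were lost; mt-Nd4l also lost its call without DMSO replicate 1 (0.0572) and mt-Atp8 without Gem replicate 1 (0.0567) or 2 (0.0571).

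**Figure D2:**
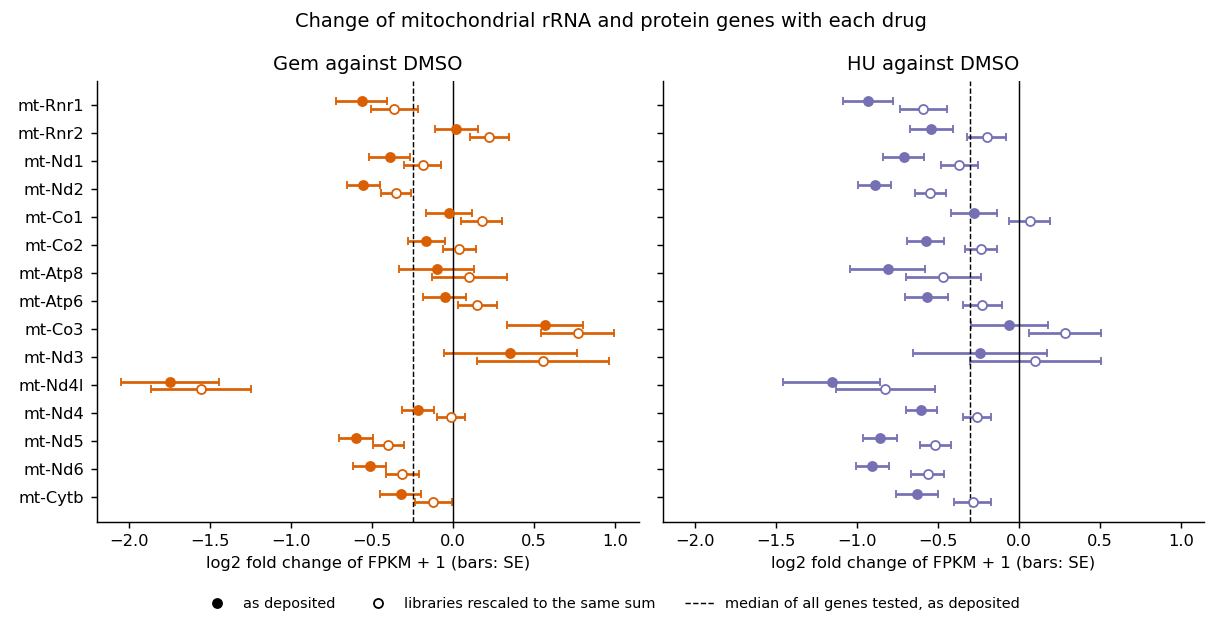
Log2 fold change of FPKM + 1 (x axis, bars show SE) of each ribosomal RNA and protein gene, for Gem against DMSO on the left and HU against DMSO on the right; filled points are values as deposited, open points after rescaling the libraries, and the dashed line marks the median of all genes tested (-0.25 in Gem, -0.30 in HU). Rescaling moves all points to the right, and mt-Nd2, mt-Nd5, mt-Nd6 and mt-Rnr1 stay well below 0 in HU. So do mt-Nd4l, the lowest at -0.82, and mt-Atp8 at -0.47, which were not called after rescaling.

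Ratios within a library are not touched by scaling. The ratio of mt-Co1 to mt-Nd2 was 32.8 and 32.3 in Gem, 32.9 and 36.2 in HU, and 23.7, 23.3 and 20.7 in DMSO. mt-Co1 over mt-Cytb was 2.88 and 2.98 in Gem, 2.96 and 3.12 in HU, and 2.36, 2.50 and 2.29 in DMSO. mt-Nd5 over mt-Cytb was 0.167 and 0.181 in Gem, 0.184 and 0.175 in HU, and 0.215, 0.204 and 0.214 in DMSO. In all 3 ratios the drug libraries stood apart from DMSO, with mt-Co1 high beside mt-Nd2 and mt-Cytb, and mt-Nd5 low beside mt-Cytb. Another pair of ratios overlapped DMSO, except that both HU libraries lay below every DMSO library for mt-Nd6 over mt-Cytb. mt-Nd6 over mt-Cytb was 0.150 and 0.177 in Gem, 0.169 and 0.140 in HU, and 0.171, 0.186 and 0.203 in DMSO. mt-Atp8 over mt-Atp6 was 0.556 and 0.609 in Gem, 0.515 and 0.505 in HU, and 0.487, 0.562 and 0.797 in DMSO. The ratios were chosen after the values were seen, use the rows of mt-Co1 and mt-Atp6 without their copies, and carry no test.

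Several mitochondrial genes have near-identical annotated copies in the nuclear genome, so that how short fragments were divided between gene and copy bears on the rows above. A search of GENCODE M21 transcripts (GRCm38, the assembly of mm10) found 17 nuclear genes with at least 90% identity to a mitochondrial gene over at least 100 bases, and 7 of them were at least 99% identical. The 7 lie together on the minus strand of chromosome 1, within 4663 bases (chr1:24611535-24616197), in the same order and nearly the same spacing as in mitochondrial DNA. They are unprocessed pseudogenes that match mt-Co1 (Gm29216, 483 bases), mt-Co2 (Gm28661, 681 bases), mt-Atp6 (Gm10925, 678 bases), mt-Co3 (Gm28437, 783 bases), mt-Nd3 (Gm28438, 345 bases), mt-Nd4l (Gm10222, 294 bases) and mt-Nd4 (Gm28439, 876 bases). Of the 7, 5 had no mismatch over the aligned bases, and Gm29216 and Gm28438 had 1 each. The 9 less alike copies in the table (Gm43743, Gm11512, Gm13340, Gm13341, Gm11410, Gm13339, Gm11407, Gm4076 and Gm11408) stayed at or below 1.18 FPKM in every library, and no ribosomal or transfer RNA gene had an annotated match. Gm10221, listed with the nuclear copies, had no match to a mitochondrial gene and changed by -1.49 ± 0.29 in Gem (limma adjusted p = 0.0135) and -1.48 ± 0.29 in HU (adjusted p = 0.00735), and its Gem call was lost after rescaling.

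The start of the coding sequence shows how little separates gene and copy. Below are the first 33 bases of mt-Nd3 (chrM:9459-9491, plus strand) and of Gm28438 (chr1:24613087-24613119, minus strand), both 5′ to 3′, with the 1 mismatch in capitals. It is T3C, counted from 1 at the first base of the coding sequence, with the base of mt-Nd3 first. For mt-Nd4l (chrM:9877-9966, plus strand) and Gm10222 (chr1:24612611-24612700, minus strand) the first 90 bases are shown, which are the same letter for letter.
mt-Nd3: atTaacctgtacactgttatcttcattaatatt
Gm28438: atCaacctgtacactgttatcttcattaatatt
mt-Nd4l: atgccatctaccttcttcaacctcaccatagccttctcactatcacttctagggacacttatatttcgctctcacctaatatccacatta
Gm10222: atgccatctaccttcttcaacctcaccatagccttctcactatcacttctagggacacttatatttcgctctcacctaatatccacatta

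The copies held high values of their own. Gm10222 had 2474 and 1905 FPKM in Gem, 1554 and 1747 in HU, and 3589, 2844 and 3558 in DMSO, which was 96.5% to 99.1% of the signal of gene and copy together. Gm28438 had 179.95 and 196 FPKM in Gem, 139 and 13.8 in HU, and 449.6, 592 and 689 in DMSO, or 5.10% to 80.7% of the pair. The share was 57.7% to 79.3% for the copy of mt-Co3, 44.4% to 55.1% for that of mt-Co2, 25.2% to 29.7% for that of mt-Co1, 13.4% to 24.7% for that of mt-Atp6 and 0.0340% to 0.163% for that of mt-Nd4. For mt-Nd3 and mt-Co3 the share thus moved between libraries of the same group, and which of the 2 loci the fragments came from cannot be told apart in these rows.

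Pooling each gene with its copy, weighted by length, gave other values for mt-Nd3, mt-Nd4l, mt-Co3 and mt-Co2; this pooling was added after the data were seen. Pooled mt-Nd3 had 474 and 412 FPKM in Gem, 249 and 268 in HU, and 761, 737 and 847 in DMSO. The coefficient of variation of mt-Nd3 within groups went down to 9.83% pooled, against 21.5% alone, in Gem, to 5.22% against 55.7% in HU, and to 7.37% against 43.6% in DMSO. For mt-Atp6 it went up, to 11.0% pooled against 9.43% alone in Gem, 10.4% against 5.49% in HU and 8.09% against 7.54% in DMSO. All 3 groups of pooled mt-Nd3 were separate, with HU lowest and DMSO highest. The pooled log2 fold change was -0.82 ± 0.096 in Gem (limma adjusted p = 0.00562) and -1.59 ± 0.096 in HU (adjusted p = 0.000755), and stayed called after rescaling at -0.62 in Gem (adjusted p = 0.0253) and -1.25 in HU (adjusted p = 0.00218). In Gem the direction was the reverse of the row of mt-Nd3 alone.

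Pooled mt-Nd4l had 2471 and 1914 FPKM in Gem, 1593 and 1756 in HU, and 3664, 2894 and 3597 in DMSO. It fell by 0.63 ± 0.15 in Gem (limma adjusted p = 0.0240) and by 1.01 ± 0.15 in HU (adjusted p = 0.00282), where the row of mt-Nd4l alone, which held little of the pair's signal, fell by 1.75 in Gem. The pooled call was lost after rescaling in Gem (-0.43, limma adjusted p = 0.141) and held in HU (-0.67, adjusted p = 0.0270). Pooled mt-Co3 had 9617 and 8393 FPKM in Gem, 6982 and 7438 in HU, and 10264, 9349 and 9904 in DMSO. Its log2 fold change was -0.13 ± 0.12 in Gem (limma adjusted p = 0.462), against 0.57 for the row alone, and -0.45 ± 0.12 in HU (adjusted p = 0.0235, and 0.599 after rescaling). Pooled mt-Co2 was at -0.35 ± 0.12 in Gem (limma adjusted p = 0.0647) and -0.79 ± 0.12 in HU (adjusted p = 0.00278, and 0.0370 after rescaling).

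The pooled values of the other genes stayed close to their own rows. mt-Atp6 was at -0.093 ± 0.14 in Gem and -0.47 ± 0.14 in HU (limma adjusted p = 0.0355), mt-Co1 at -0.027 ± 0.15 in Gem and -0.30 ± 0.15 in HU (adjusted p = 0.144), and mt-Nd4 at -0.22 ± 0.097 in Gem and -0.60 ± 0.097 in HU (adjusted p = 0.00359). After rescaling none of these 3 was called in HU (limma adjusted p = 0.598, 0.874 and 0.105).

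With copies pooled, 5 of the 13 protein genes fell in Gem and 12 in HU, where 23.2% of all genes in that fit were called lower in Gem and 35.5% in HU. After rescaling 1 was called lower in Gem and 6 in HU, where the shares of all genes were 2.44% in Gem and 6.06% in HU. The median log2 fold change of the 13 was then -0.35 in Gem and -0.79 in HU. The 6 protein genes for which the search found no near-identical copy (mt-Nd1, mt-Nd2, mt-Nd5, mt-Nd6, mt-Cytb and mt-Atp8) were also read without pooling. As deposited, 3 fell in Gem, with a median of -0.45, and 6 fell in HU, with a median of -0.83. The shares of all genes were the same 23.2% and 35.5%. After rescaling 0 were called in Gem, with a median of -0.25, and 3 in HU, with a median of -0.49. The shares of all genes called lower were then 2.41% in Gem and 6.01% in HU. For mt-Atp8 this reading is less sure. Its last 43 bases are also the start of mt-Atp6, which Gm10925 matches without a mismatch, a stretch shorter than the search asked for. Between the copies of mt-Co2 and mt-Atp6 on chromosome 1 lie 233 bases with no annotated match. In mitochondrial DNA 230 bases with the start of mt-Atp8 separate these genes. Copies outside the annotation were not searched.

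**Figure D3:**
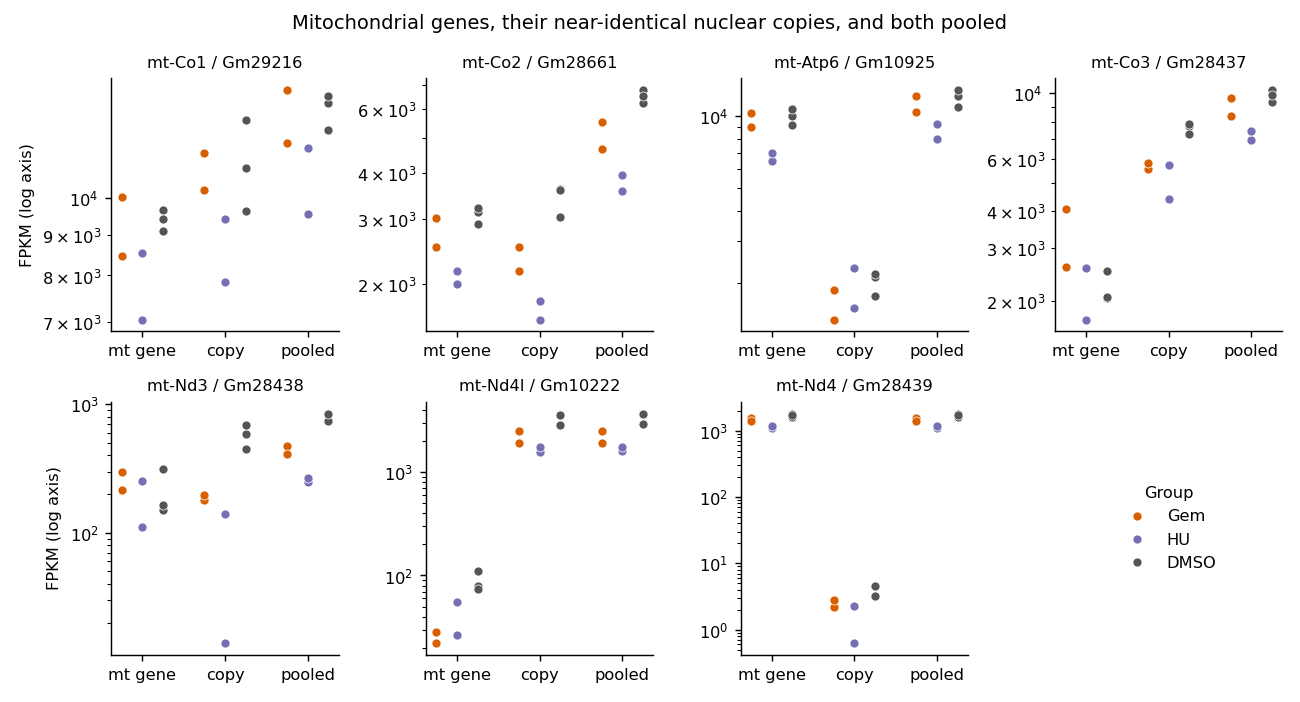
FPKM (log axis, scale set per panel) of 7 mitochondrial protein genes alone, of their near-identical nuclear copies, and of both pooled by length; points are libraries of Gem (n = 2), HU (n = 2) and DMSO (n = 3). In the mt-Nd3 panel the groups mix for the gene and are ordered HU, Gem, DMSO from low to high when pooled (249 to 268, 412 to 474 and 737 to 847 FPKM).

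The 22 transfer RNA genes are 59 to 75 bases long, and 15 of them were listed at 0 in all libraries. FPKM is estimated poorly for so short a transcript, and a listed 0 can be a failed estimate, so the values are given per library with no fold change. The other 7 were above 0 only in drug libraries: 2 in Gem replicate 2, 6 in HU replicate 1 and 1 in HU replicate 2, with none in Gem replicate 1 or the 3 DMSO libraries. Drug libraries also listed more genes of the whole table above 0. These were 29158 and 27887 in Gem, 31153 and 29687 in HU, and 22614, 23047 and 21251 in DMSO. mt-Tq, the transfer RNA for glutamine, was at 0 and 6335 FPKM in Gem, 6827 and 5970.2 in HU, and 0 in each DMSO library. It was the only transfer RNA gene to pass the filter on low values, and did so through the drug libraries alone, so no test of it is given.

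The remaining 6 were above 0 in 1 library each. mt-Ts1, a transfer RNA for serine, was at 18167 FPKM in HU replicate 1, above mt-Rnr2 in that library, and mt-Te, for glutamate, was at 1566. In the same library mt-Tc, for cysteine, was at 79.3, mt-Tp, for proline, at 73.1 and mt-Tv, for valine, at 62.6 FPKM. mt-Tl1, a transfer RNA for leucine, was at 65.9 FPKM in Gem replicate 2. Of the 7, 5 lie on the minus strand, which holds 8 of the 22 transfer RNA genes.

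Sequences of 4 of them are shown 5′ to 3′ as the transcript reads, from the GENCODE M21 transcripts (GRCm38): the 3 with the highest values, and mt-Tl1 as the other one above 0 in Gem. mt-Tq lies at chrM:3772-3842, mt-Ts1 at chrM:6870-6938 and mt-Te at chrM:14071-14139, all on the minus strand, and mt-Tl1 at chrM:2676-2750 on the plus strand. Capitals mark the 3 last bases of mt-Tq and mt-Ts1, which lie opposite the end of mt-Ti and of mt-Co1, so fragments over them can also belong to those plus-strand genes.
mt-Tq: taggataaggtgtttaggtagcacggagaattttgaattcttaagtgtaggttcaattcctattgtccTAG
mt-Ts1: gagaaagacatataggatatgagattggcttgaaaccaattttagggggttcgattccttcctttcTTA
mt-Te: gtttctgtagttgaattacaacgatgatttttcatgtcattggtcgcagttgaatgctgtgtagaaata
mt-Tl1: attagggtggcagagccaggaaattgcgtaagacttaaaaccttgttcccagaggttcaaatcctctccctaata

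Other very short genes were set beside them. Of 885 nuclear genes of at most 80 bases, 10 and 7 were above 0 in the Gem libraries, 12 and 3 in the HU libraries, and 1, 4 and 1 in the DMSO libraries. The highest value among them was 530.3 FPKM, in DMSO replicate 2. The values of mt-Tq, mt-Ts1 and mt-Te lay above all of these. Short nuclear genes above 0 were thus more frequent than in DMSO in both Gem libraries and HU replicate 1, and not in HU replicate 2. These were only in part the libraries with transfer RNA values, which were Gem replicate 2 and both HU libraries. The part of this in the transfer RNA values was not tested.

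**Figure D4:**
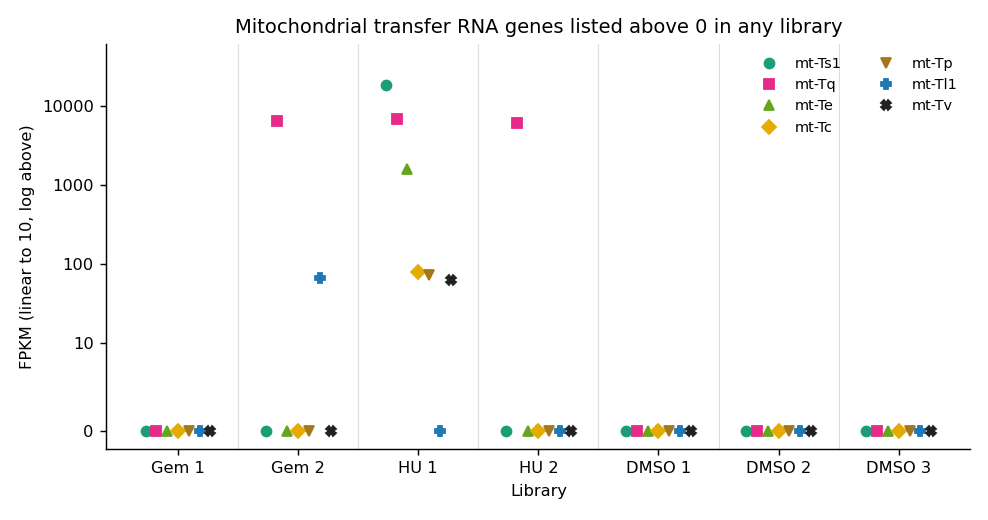
FPKM (linear to 10, log above) of the 7 transfer RNA genes above 0 in any library, by library, with Gem and HU left of DMSO. mt-Tq stands at 5970.2 to 6827 in Gem 2, HU 1 and HU 2, the other 6 genes are above 0 in 1 library each, and all are at 0 in Gem 1 and the DMSO libraries.

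Between the drugs, the protein genes were mostly higher in Gem than in HU, and none passed the test. All Gem libraries were above all HU libraries in 10 of the 13 and below in none, where 27.7% of all genes tested were all above and 13.8% all below. After rescaling 6 of the 13 were all above and 1, mt-Nd4l, all below, where 12.1% of all genes were all above and 28.6% all below. The median log2 difference of Gem against HU was 0.38 over the 13, beside 0.056 over all genes tested, and after rescaling 0.24 beside -0.069. The smallest limma adjusted p among the 13 was 0.302, for mt-Nd4 and mt-Atp6, with 7 of the 13 at an unadjusted p below 0.05 (3 after rescaling); of all genes, 0.0216% were called higher and 0.0793% lower. Pooled mt-Nd3 came nearest, at 0.77 ± 0.10 (limma adjusted p = 0.0811). Since both drugs are set against the same DMSO libraries, their separate differences from DMSO are not independent.

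The nuclear partners of the mitochondrial subunits fell together in both drugs. Of 73 nuclear genes for subunits of complexes I, III, IV and V, 66 were lower and none higher in Gem, and 72 were lower and none higher in HU, where 23.2% of all genes tested were called lower in Gem and 35.5% in HU. After rescaling 23 were called lower in Gem and 51 in HU, where the shares of all genes were 2.41% in Gem and 6.01% in HU. With trimmed-mean scaling 6 were called lower in Gem and 50 in HU. Of all 13865 genes tested, 65 in Gem and 730 in HU were then called lower. The Gem calls of lower genes as deposited, here and below, were lost without Gem replicate 2, which leaves 1 Gem library. The median log2 fold change of the 73 as deposited was -0.60 in Gem and -0.86 in HU, against -0.22 in Gem and -0.63 in HU for the 13 mitochondrial genes. With copies pooled the median of the 13 was -0.35 in Gem and -0.79 in HU. In complex I the median of the 37 nuclear genes was -0.59 in Gem and -0.86 in HU, beside -0.52 in Gem and -0.86 in HU for the 7 mitochondrial ones. In complex IV it was -0.68 in Gem and -0.96 in HU for the 11 nuclear genes, beside -0.028 in Gem and -0.28 in HU for mt-Co1, mt-Co2 and mt-Co3. With copies pooled mt-Co1, mt-Co2 and mt-Co3 were at -0.027, -0.35 and -0.13 in Gem and -0.30, -0.79 and -0.45 in HU. The differences between these medians were not tested.

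In complex I Ndufb7 averaged 131 ± 8.25 FPKM in Gem (SD, n = 2), 122 ± 5.13 in HU (n = 2) and 219.98 ± 10.8 in DMSO (n = 3), and Ndufc2 fell by 0.55 ± 0.067 (SE) on the log2 scale in Gem and 0.86 ± 0.067 in HU (limma adjusted p = 0.00575 in Gem and 0.00102 in HU). In complex III Uqcrb averaged 223 ± 21.96 FPKM in Gem, 179.98 ± 11.9 in HU and 382 ± 11.2 in DMSO. In complex IV Cox5b averaged 310.2 ± 23.7 FPKM in Gem, 257 ± 8.64 in HU and 549 ± 48.3 in DMSO, and Cox4i1 636 ± 19.1 in Gem, 543 ± 9.65 in HU and 902 ± 30.6 in DMSO. These falls lay outside the spread of the libraries: Cox5b changed by -0.82 ± 0.096 in Gem (limma adjusted p = 0.00575) and -1.09 ± 0.096 in HU (adjusted p = 0.00102). In complex V Atp5g1, the subunit of the rotor ring, changed by -1.02 ± 0.11 in Gem (limma adjusted p = 0.00569) and Atp5l by -0.91 ± 0.069 in HU (adjusted p = 0.00102).

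**Figure D5:**
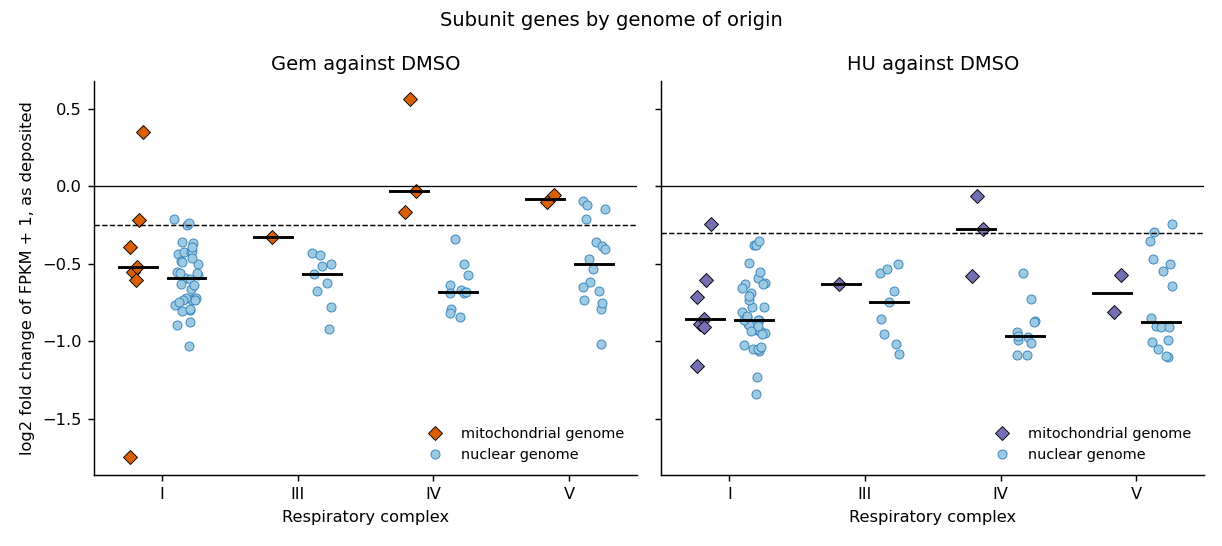
Log2 fold change of FPKM + 1 as deposited for subunit genes of complexes I, III, IV and V, in Gem on the left and HU on the right; diamonds are mitochondrial genes (7, 1, 3 and 2), circles nuclear genes (37, 9, 11 and 16), bars medians, and the dashed line the median of all genes tested. In complex IV the mitochondrial medians (-0.028 in Gem, -0.28 in HU) stand above the nuclear ones (-0.68 and -0.96).

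Nuclear genes that make, process, keep and copy mitochondrial RNA and DNA were called lower about as often as all genes in Gem. Over 5 lists with 66 genes, 15 were lower and none higher in Gem, and 29 were lower and none higher in HU, where 23.2% of all genes tested were called lower in Gem and 35.5% in HU. Their medians were -0.32 in Gem and -0.34 in HU, beside -0.25 in Gem and -0.30 in HU over all genes. After rescaling 3 were called lower in Gem and 4 in HU, where the shares of all genes were 2.41% in Gem and 6.01% in HU. In Gem, and in HU after rescaling, the counts were near the shares of all genes, so nothing is read from them about the lists, and the genes below are given as single values. Of the 10 genes for mitochondrial transcription, none passed in Gem (limma, 2 at an unadjusted p below 0.05, none after rescaling) and 1 in HU, Mterf4, of a family of transcription terminators (-0.44 ± 0.12, adjusted p = 0.0204, and 0.509 after rescaling). Polrmt, the mitochondrial RNA polymerase, had 18.9 and 17.7 FPKM in Gem, 17.1 and 14.2 in HU, and 17.8, 14.9 and 23.4 in DMSO. Tfam, which packs mitochondrial DNA and starts its transcription, had 12.9 and 10.8 FPKM in Gem, 8.53 and 12.2 in HU, and 16.5, 12.8 and 22.8 in DMSO. Polrmt overlapped DMSO in both drugs and Tfam in Gem, while its HU libraries lay just below the lowest DMSO library, and neither gene passed the test (limma adjusted p between 0.0591 and 0.973); these 2 were named for their role.

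Of the 13 genes for RNA stability and decay, 4 were lower in Gem and 5 in HU, and after rescaling 1 in Gem and 3 in HU. Rexo2, an exonuclease for very short RNAs, had 104 and 98.5 FPKM in Gem, 94.0 and 87.5 in HU, and 161, 152 and 154 in DMSO. It changed by -0.62 ± 0.070 in Gem (limma adjusted p = 0.00574) and -0.77 ± 0.070 in HU (adjusted p = 0.00102), and stayed called after rescaling. Slirp, which binds and stabilises mitochondrial messengers, fell by 0.96 ± 0.15 in HU (limma adjusted p = 0.00341), and Mtpap, the mitochondrial poly(A) polymerase, by 0.78 ± 0.11 (adjusted p = 0.00221). Both stayed called in HU after rescaling. Of the 17 processing and modification genes, 3 were lower in Gem and 9 in HU, and after rescaling 1 in Gem and none in HU (limma, 3 at an unadjusted p below 0.05). Among them Pus1, a pseudouridine synthase of transfer RNAs, changed by -0.63 ± 0.082 in Gem (limma adjusted p = 0.00650) and -0.59 ± 0.082 in HU (adjusted p = 0.00214), and Hsd17b10, part of mitochondrial ribonuclease P, by -0.52 in Gem (adjusted p = 0.0120) and -0.66 in HU (adjusted p = 0.00261). After rescaling only the Gem call of Pus1 was left of these 4 (limma adjusted p = 0.0424), against 0.0910 for Pus1 in HU, 0.137 for Hsd17b10 in Gem and 0.0973 for Hsd17b10 in HU.

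Of the 13 genes for mitochondrial DNA replication, 4 were lower in Gem and 6 in HU, and after rescaling 1 in each: Endog in Gem and Ssbp1 in HU. Endog, a mitochondrial nuclease, had 3.94 and 3.80 FPKM in Gem, 7.54 and 6.40 in HU, and 13.1, 9.34 and 10.7 in DMSO, with a change of -1.30 ± 0.16 in Gem (limma adjusted p = 0.00575). Ssbp1, which coats single-stranded mitochondrial DNA, had 59.1 and 51.6 FPKM in Gem, 44.5 and 45.4 in HU, and 82.8, 90.9 and 71.7 in DMSO, with a change of -0.84 ± 0.11 in HU (limma adjusted p = 0.00196). Of the 13 genes for deoxynucleotide supply, 4 were lower in Gem and 8 in HU, and after rescaling none in either (limma, 4 in Gem and 3 in HU at an unadjusted p below 0.05). Dguok, which phosphorylates deoxyguanosine in mitochondria, changed by -0.58 in Gem (limma adjusted p = 0.0128), and Suclg1, a succinyl-CoA ligase subunit tied to that supply, by -0.50 (adjusted p = 0.0134).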

How the data were processed

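RNA of 7 libraries (Gem 2, HU 2, DMSO 3) was compared. Per the labels' protocols, RNA came from a miRNeasy kit, its cDNA was amplified by Geo-seq, and a TruePrep kit gave the libraries. The authors deposited 1 table of FPKM for 52224 genes. Per the submitters' processing notes, Bowtie 0.12.9, Cufflinks 2.1.1, HTSeq, DESeq2 and mm10 were used, with no role or order; the annotation, and how fragments that match several places were counted, is not given in the sources used here. All columns matched a labelled library, with 0 columns unused. The depth is unknown, so no counting interval is given. Low values, times length, were set against the step that fitted each library best, and many were not whole multiples of it. Those within 0.1 of one were 32.1% and 36.1% in Gem, 49.4% and 55.2% in HU, and 28.7% to 30.9% in DMSO. By chance a fixed step would give 20%. The reason for the difference between groups was not tested.

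Values were analysed as log2(FPKM + 1), which understates changes of low genes, with limma 3.58.1 (R 4.3.3): 1 model over the 3 groups, a mean-variance trend, two-sided tests and Benjamini-Hochberg adjustment over 13865 genes. The steps were tested on simulated data. Nuclear copies were sought with BLAST 2.17.0, and their FPKM, times length, was added to the mitochondrial gene. Sequences are GENCODE M21. The 37 genes, lists and ratios were chosen with earlier results of these data known. Every protein and ribosomal RNA gene is named; transfer RNA genes with 1 FPKM in 2 libraries were to be named, and the other 6 above 0 were named after their values were seen. From the 5 upkeep lists the 6 smallest adjusted p per comparison were named, and up to 2 per complex. Alternatives were a pseudocount of 0.1, no filter, rescaling to the same sum, trimmed-mean scaling, quantile normalization, no trend, only the compared groups, leaving out each library, and a block for the replicate number.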

Additional observations from a re-analysis of the deposited data

How the results depend on the processing

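Depth is unknown, only 2 or 3 libraries make a group, and the sources do not say how fragments shared by a gene and its copy were counted. The cause was not tested for any change below. Of the mitochondrial protein genes, 4 were called in Gem as deposited, 1 after rescaling, 0 with trimmed-mean scaling (4 at an unadjusted p below 0.05), 0 with quantile normalization, 1 with copies added and rescaling, and 0 to 4 with a library left out (2 without Gem replicate 1, 0 without Gem replicate 2). In HU 10 were called as deposited, 3 after rescaling, 3 with trimmed-mean scaling, 0 with quantile normalization, 6 with copies added and rescaling, and 5 to 10 with a library left out. Against HU, Gem had 0 calls of them under each alternative run.

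Of all genes, 3421 were called in Gem, 1509 with no filter, 440 after rescaling, 132 with trimmed-mean scaling, 67 with quantile normalization, 2132 with no trend, 444 with copies added and rescaling, and 12 (without Gem replicate 2) to 3367 with a library left out. In HU 5541 were called, 1478 after rescaling, 1389 with trimmed-mean scaling, 560 with quantile normalization, 1485 with copies added and rescaling, and 3035 to 5192 with a library left out. For Gem against HU 14 were called, 1 with a pseudocount of 0.1, 2 with no filter, 64 with no trend, 1 with the compared groups only, 2 with the replicate block, and 2 to 18 with a library left out.

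Single log2 fold changes that turned round were these. In Gem, mt-Nd3 was at -0.82 with copies added and -0.62 with copies added and rescaling, mt-Co3 at -0.13 with copies added, and mt-Nd4 at 0.085 with trimmed-mean scaling. After rescaling in Gem mt-Co1 was at 0.17, mt-Co2 at 0.037, mt-Atp6 at 0.15 and mt-Atp8 at 0.099; with trimmed-mean scaling these were 0.28, 0.14, 0.25 and 0.20. With quantile normalization in Gem mt-Co1 was at 0.086, mt-Co2 at 0.045 and mt-Atp6 at 0.036, and with copies added and rescaling mt-Co1 was at 0.18, mt-Atp6 at 0.11 and mt-Atp8 at 0.10. Leaving out libraries gave ranges in Gem of -0.15 to 0.095 for mt-Co1, -0.15 to 0.043 for mt-Atp6, -0.25 to 0.15 for mt-Atp8 and -0.063 to 0.10 for mt-Rnr2. In HU mt-Nd3, mt-Co1 and mt-Co3 were at 0.10, 0.066 and 0.28 after rescaling, 0.13, 0.092 and 0.31 with trimmed-mean scaling, and 0.38, 0.20 and 0.42 with quantile normalization; mt-Co1 was at 0.045 with copies added and rescaling. Leaving out libraries in HU gave -0.84 to 0.36 for mt-Nd3 and -0.35 to 0.23 for mt-Co3. For Gem against HU mt-Nd3 ran at -0.0045 to 1.19 with a library left out, mt-Nd4l at 0.38 with copies added and 0.24 with rescaling too, and mt-Co1 at -0.11 with quantile normalization.

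The replicate numbers gave no clear sign of pairing: same-numbered libraries correlated at -0.074 to 0.055 once group means were taken out. With 2 libraries in Gem and in HU, each value comes with its mirror image. Such values cannot exclude that libraries were prepared together. With the replicate block 5 protein genes were called in Gem, with mt-Co3 called higher (0.52, limma adjusted p = 0.0283) and mt-Rnr1 not called (-0.54, adjusted p = 0.0877), mt-Atp8 turned to 0.15, and 10 were called in HU. Of all genes 2877 were called in Gem and 4835 in HU with the block.

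Shares of the summed FPKM over nuclear genes only as the denominator were 5.58% for protein genes in DMSO and 4.97% in HU, and 2.54% in Gem, 1.95% in HU and 2.30% in DMSO for ribosomal RNA genes. With a library left out, the shares ran for protein genes at 5.17% to 5.91% in Gem, 4.36% to 4.70% in HU and 4.96% to 5.35% in DMSO, for ribosomal RNA genes at 2.23% to 2.44%, 1.74% to 1.81% and 2.07% to 2.18%, and for transfer RNA genes at 0% to 0.910%, 0.917% to 4.13% and 0%.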
